A study of Mus musculus with 14 samples.

Results

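A list of 9 genes that mark or drive the earliest steps of B cell formation was followed across 14 spatial transcriptomics sections of mouse blood-forming organs. The genes were chosen by symbol (Vpreb1, Igll1, Vpreb3, Rag1, Rag2, Dntt, Ebf1, Pax5 and Il7r), 9 of the 32589 features in the tables of the purchased mice, and 8 of them are among the 19465 features of the C1qa cross, where Vpreb1 is not listed. Levels are given as CPM, the UMIs of a gene scaled to the total UMIs over the in-tissue spots of a section with at least 1000 detected genes. A spot holds several cells of different types, and a section summed in this way is a bulk sample, in which fewer cells of a type and less RNA per cell cannot be told apart. Probes differ between genes, so each gene was mainly compared with itself across sections. Where a level is set beside that of other genes in a section, as with the olfactory receptor genes below, this limit applies.

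B cells arise first in the fetal liver and, after birth, in the bone marrow. Progenitors depend on interleukin 7, received through Il7r, and are directed to the lineage by the transcription factors Ebf1 and Pax5. Rag1 and Rag2 cut the immunoglobulin genes, Dntt adds untemplated bases at the joints, and a new heavy chain is then tested with the surrogate light chain, built from Vpreb1 and Igll1 (lambda5). Vpreb3 binds the heavy chain inside the cell. The surrogate light chain genes, the Rag genes and Dntt are switched off as B cells mature, Pax5 and Ebf1 remain on in mature B cells, Il7r is also used by T cells, and Ebf1 is also active in stromal cells.

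The purchased mice were wild-type C57BL/6 animals, with 1 section each of E13.5 fetal liver, E14.5 fetal liver, leg bone at P8, leg bone at 89 weeks, leg bone at 6 months after 0.5M EDTA treatment for 5 days, and adult spleen. The cross was between C1qa heterozygous parents and gave 2 sections for each of 4 groups: wild-type E14.5 fetal liver 2 and 4, C1qa knockout E14.5 fetal liver 2 and 4, wild-type spleen 1 and 2, and C1qa knockout spleen 1 and 2, the spleens at 3 months. The knockout removes C1qa from every cell of the animal, no wild-type or knockout animal received a treatment, and fetal livers with the same number came from the same litter. The P8 bones were taken without decalcification. Purchased and cross sections differ in mice, feature table and software version, so their values are set side by side without a test. Cross replicates are separate sections, 2 a group, and p-values measure the spread between these.

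Depth ranged from 37167 to 56182915 UMIs in 15 to 2320 passing spots per section. C1qa was read at 25.8 to 269 CPM in the 4 wild-type cross sections and at 0.0548 to 0.189 CPM, 1 or 2 counts, in the 4 knockout sections. Several sections did not carry the marker genes of the labeled organ throughout. Spots in which 8 neutrophil genes gave 0.5% of the UMIs or more, taken as marrow, were 27.9% of the passing P8 spots, and marrow stroma genes summed to 60179 CPM there against 560 CPM at 89 weeks. Spots that reached the same share for 8 hepatocyte genes were 29.8% of the passing spots in wild-type fetal liver 4 and 62.3% in knockout fetal liver 4, against 94.4% and 96.6% in the litter 2 livers. The EDTA-treated marrow kept 15 passing spots and 37167 UMIs, in which 3 counts are 80.7 CPM. There 8 of the 9 genes had 0 counts, with a 95% Poisson upper limit of 99.3 CPM each, and Ebf1 had 2 counts. This section was left out of all comparisons. The cross sections also carried a low signal across genes that blood-forming tissue is not known to use. The 90th percentile of olfactory receptor genes, a list chosen after the data were seen, lay at 0.0178 to 0.593 CPM in the 5 purchased sections other than the EDTA-treated one, at 0.891, 1.59, 1.04 and 5.23 CPM in fetal livers wild-type 2, wild-type 4, knockout 2 and knockout 4, and at 8.63, 7.57, 5.76 and 3.83 CPM in spleens wild-type 1, wild-type 2, knockout 1 and knockout 2.

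The upstream sequences of 4 genes are shown here, the 3 whose windows carry short motifs of early B cell factors (Igll1, Vpreb1 and Rag1) and Vpreb3, the partner of the first pair that carries none. Capitals mark matches on either strand to CCCNNGGG, the core that Ebf1 prefers, and to the E-boxes CAGCTG and CAGGTG, which E2A proteins bind. Sequences are from RefSeq (GRCm38.p6), 5′ to 3′ in the direction of the gene, and cover the 250 bases before an annotated transcript start. The Vpreb3 window lies within the annotated gene (chr10:75943024-75949657), before a transcript start inside it. The bases before the outer start of Vpreb3 were not searched.
Igll1 promoter, chr16:16863986-16864235 (minus strand): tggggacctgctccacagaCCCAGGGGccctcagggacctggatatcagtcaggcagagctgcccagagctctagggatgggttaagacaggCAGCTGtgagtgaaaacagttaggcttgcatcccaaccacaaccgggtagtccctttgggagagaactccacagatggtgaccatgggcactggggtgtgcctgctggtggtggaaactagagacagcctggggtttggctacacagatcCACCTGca
Vpreb1 promoter, chr16:16869256-16869505 (minus strand): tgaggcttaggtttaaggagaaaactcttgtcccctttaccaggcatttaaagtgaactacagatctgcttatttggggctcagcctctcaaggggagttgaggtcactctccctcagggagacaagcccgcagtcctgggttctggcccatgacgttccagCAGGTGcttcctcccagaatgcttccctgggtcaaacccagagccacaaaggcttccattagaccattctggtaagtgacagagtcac
Rag1 promoter, chr2:101649533-101649782 (minus strand): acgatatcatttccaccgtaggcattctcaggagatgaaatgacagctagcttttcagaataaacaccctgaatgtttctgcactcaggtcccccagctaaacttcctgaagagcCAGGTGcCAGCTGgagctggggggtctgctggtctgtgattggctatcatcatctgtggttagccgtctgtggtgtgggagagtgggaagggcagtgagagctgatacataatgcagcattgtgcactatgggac
Vpreb3 promoter, chr10:75948050-75948299 (plus strand): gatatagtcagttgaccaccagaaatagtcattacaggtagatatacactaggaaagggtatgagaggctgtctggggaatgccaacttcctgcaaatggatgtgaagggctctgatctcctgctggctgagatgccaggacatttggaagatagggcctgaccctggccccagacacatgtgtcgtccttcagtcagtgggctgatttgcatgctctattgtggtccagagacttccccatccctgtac
All 9 genes matched the RefSeq promoter table, with 10 windows of 300 bases that also include the first bases of the transcript. The Igll1 window holds all 3 motifs, in the order CCCNNGGG, CAGCTG and CAGGTG toward the start, the last read as its complement on the printed strand. The neighboring gene Vpreb1 holds CAGGTG, and Rag1 holds CAGGTG next to CAGCTG. No window of Vpreb3, Rag2, Dntt, Ebf1, Pax5 or Il7r holds any of these. Among all 32851 promoter windows 13.7% hold CCCNNGGG, 16.3% hold CAGCTG and 20.2% hold CAGGTG, so that each motif is common, and a match is a string of letters and not a binding site. TGGGAA, the core read by Ikaros, is in the windows of Rag1 and Ebf1 and in 25.6% of all windows, and TATAAA on the coding strand is in 0 windows of the 9 genes and 8.32% of all.

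**Figure D1:**
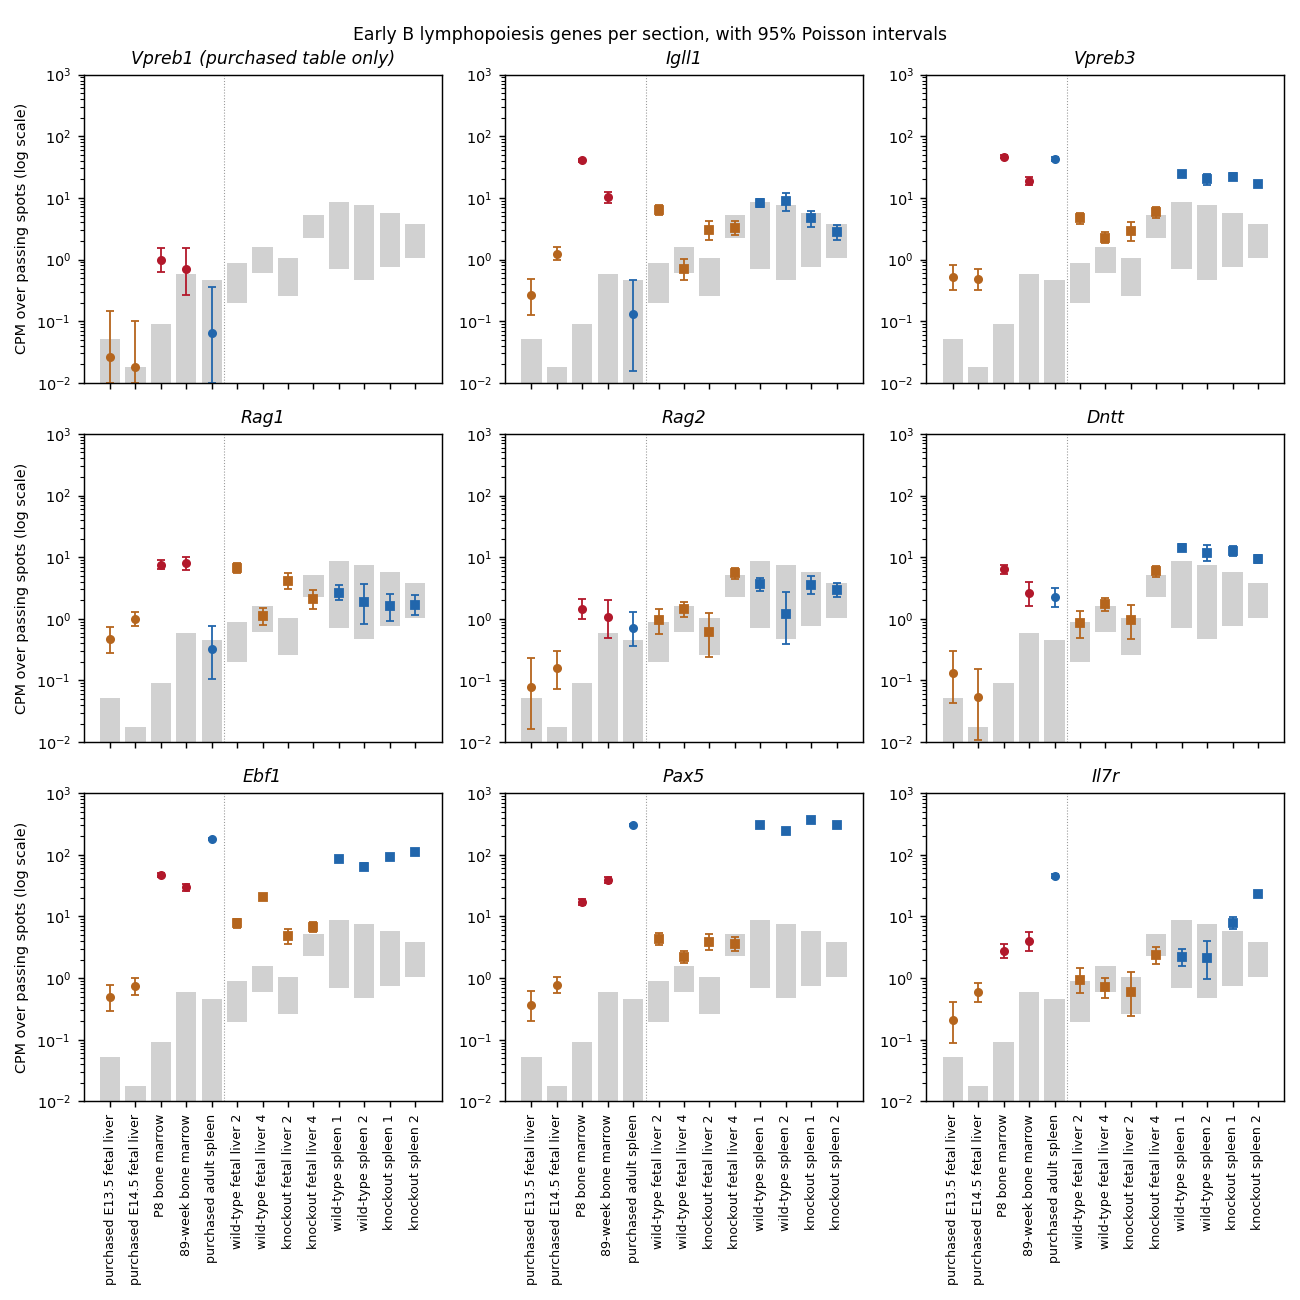
CPM of each gene (log scale) in each section, with 95% Poisson intervals, purchased sections to the left of the line and cross sections to the right. Igll1 is highest in P8 bone marrow, at 40.4 CPM, while Pax5 is highest in the spleens, at 246 to 369 CPM.

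The surrogate light chain genes were read in the marrow and at very low levels in the purchased livers and spleen. Igll1 stood at 0.261 CPM in E13.5 liver, 1.25 in E14.5 liver, 40.4 in P8 marrow, 10.2 in 89-week marrow and 0.131 in adult spleen. The spleen value rests on 2 counts in 2 of 1012 spots, and P8 marrow is the highest of the 5. Vpreb1 followed with 0.0261, 0.0178, 1.00, 0.711 and 0.0654 CPM in the same order, from 1 to 22 counts. Vpreb1 has a near-identical copy, Vpreb2, with 0.910 CPM at P8 and 0.356 at 89 weeks, so the split of counts between them is uncertain. Vpreb3 had a different distribution, at 0.522, 0.481, 46.3, 19.0 and 43.3 CPM, with the spleen about as high as P8 marrow.

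In the cross, the wild-type livers 2 and 4 held Igll1 at 6.33 and 0.707 CPM, and the knockout livers 2 and 4 held 3.03 and 3.27 CPM. Wild-type spleens 1 and 2 held 8.28 and 8.76 CPM, and knockout spleens 1 and 2 held 4.63 and 2.79 CPM. The spleen values are 0.959, 1.16, 0.803 and 0.729 times the 90th percentile of the olfactory receptor genes of the same section, whereas in the litter 2 livers Igll1 was 7.11 and 2.92 times that level and in the litter 4 livers 0.444 and 0.625 times. Igll1 was thus above this low signal in the litter 2 livers. In the spleens it lay within it, above 86.4% and 94.2% of the olfactory receptor genes in wild-type 1 and 2 and above 74.1% and 64.6% in knockout 1 and 2. Vpreb3 was at 4.65, 2.27, 2.86 and 5.83 CPM in the livers in the order wild-type 2, wild-type 4, knockout 2 and knockout 4, and at 24.1, 19.9, 21.9 and 16.8 CPM in the spleens in the order wild-type 1, wild-type 2, knockout 1 and knockout 2. All 4 spleens were above all 4 livers, and 2.62 to 4.37 times the olfactory level.

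Of the genes for recombination, Rag1, the subunit that cuts DNA, stood at 0.470 CPM in E13.5 liver, 1.01 in E14.5 liver, 7.60 in P8 marrow, 7.94 in 89-week marrow and 0.327 in adult spleen. Both bone sections were above the other 3, and on the marrow spots of the P8 section Rag1 was at 14.0 CPM. In the cross livers Rag1 was at 6.68, 1.11, 4.16 and 2.08 CPM and in the cross spleens at 2.66, 1.89, 1.61 and 1.70 CPM, in the orders given above. The litter 2 livers were the highest of the 8, at 7.5 and 4 times the olfactory level, and all other cross values lay below that level. Rag2, its partner, was at 0.0783, 0.160, 1.46, 1.07 and 0.719 CPM in the purchased sections, from 3 to 32 counts. In the cross it was at 0.940, 1.44, 0.606 and 5.53 CPM in the livers and 3.61, 1.18, 3.59 and 2.96 CPM in the spleens, between 0.156 and 1.06 times the olfactory level, so that Rag2 was not set apart from the low signal in any cross section.

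Dntt, the terminal transferase, was at 0.130, 0.0534, 6.42, 2.61 and 2.22 CPM in the purchased E13.5 liver, E14.5 liver, P8 marrow, 89-week marrow and spleen. The fetal values rest on 5 and 3 counts. In the cross it was at 0.841, 1.74, 0.952 and 5.95 CPM in the livers, 0.917 to 1.14 times the olfactory level, and at 14.3, 11.8, 12.6 and 9.31 CPM in the spleens, 1.56 to 2.43 times that level. The 4 spleens were all above the 4 livers.

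The lineage factors and the cytokine receptor were highest in spleen among the purchased sections. Ebf1 was at 0.496, 0.748, 47.0, 29.8 and 180 CPM and Pax5 at 0.365, 0.783, 17.1, 38.8 and 307 CPM in E13.5 liver, E14.5 liver, P8 marrow, 89-week marrow and spleen. Both were lowest in the livers and highest in the spleen. Il7r was at 0.209, 0.587, 2.78, 4.03 and 45.4 CPM, rising less from liver to marrow than Ebf1. In the cross livers Ebf1 was at 7.72, 20.7, 4.76 and 6.72 CPM, Pax5 at 4.35, 2.20, 3.90 and 3.63 CPM, and Il7r at 0.940, 0.707, 0.606 and 2.38 CPM. In the cross spleens Ebf1 was at 85.2, 64.4, 92.7 and 113 CPM and Pax5 at 306, 246, 369 and 303 CPM. The wild-type spleens held Il7r at 2.21 and 2.13 CPM and the knockout spleens at 7.93 and 23.0 CPM, all below the 45.4 CPM of the purchased spleen. In the wild-type spleens Il7r was 0.256 and 0.281 times the olfactory level, and in the knockout spleens 1.38 and 5.99 times. The high Ebf1 of wild-type fetal liver 4 lay mostly outside its hepatocyte-rich spots, which held 38 of 821 counts. On these spots Ebf1 was at 2.30 CPM, below the 6.82 CPM of wild-type fetal liver 2 on such spots.

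Between E13.5 and E14.5 the purchased fetal liver gained transcripts of several of these genes. Of the 7 with at least 10 counts over both sections, 5 were at least 2-fold higher at E14.5 and 0 were at least 2-fold lower, against 2.52% and 5.55% of the 14333 features with as many counts. Igll1 was 4.78-fold higher, with a counting interval of 2.45 to 10.4, Il7r 2.81-fold (1.27 to 7.05), Rag1 2.16-fold (1.25 to 3.9), Pax5 2.14-fold (1.15 to 4.24) and Rag2 2.05-fold (0.511 to 11.8). Ebf1 was 1.51-fold higher, within its interval of 0.858 to 2.75, and Vpreb3 was at 0.921-fold (0.498 to 1.73). There was 1 section per stage, so these ratios have no replicate check. The wild-type E14.5 livers of the cross, which share a stage and a genotype, differed more in Igll1 (6.33 and 0.707 CPM) than these stages did.

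From the E14.5 liver to P8 marrow all 9 genes were at least 2-fold higher, against 35.6% of 15140 features higher and 11.5% lower (with TMM scaling the split over all features was 4428 and 3000, in place of 5394 and 1744). Dntt was 120-fold higher (40.3 to 590, from 3 counts in liver), Vpreb3 96.4-fold (65.8 to 147), Ebf1 62.9-fold (46.2 to 87.9), Vpreb1 56.2-fold (9.09 to 2321, from 1 count) and Igll1 32.4-fold (25.4 to 41.9). Pax5 was 21.8-fold higher (15.9 to 30.5), Rag2 9.09-fold (4.24 to 21.6), Rag1 7.49-fold (5.51 to 10.3) and Il7r 4.73-fold (3.05 to 7.45). With P8 limited to its marrow spots the ratios were larger, at 227-fold for Dntt, 180-fold for Vpreb3, 85.2-fold for Vpreb1, 73.4-fold for Ebf1, 54.4-fold for Igll1, 39.4-fold for Pax5, 15.6-fold for Rag2, 13.8-fold for Rag1 and 8.86-fold for Il7r. The genes of the pre-B-cell receptor pathway, which pass on the signal of the tested heavy chain, were also higher in 9 of 11, and 11 of 16 B-lineage transcription factors were higher and 2 lower. None of the 11 genes on the list for the joining of cut DNA ends, which also holds Hmgb1 and Hmgb2, was 2-fold apart in either direction. Of 10 IL-7 signaling genes 5 were higher and 0 lower, and of 13 early B surface and enzyme genes 5 were higher and 1 lower. Organ and age change together here, hepatocyte genes were lower in 8 of 8, and neutrophil and marrow stroma genes each higher in 8 of 8. The part of these cells in the ratios was not tested.

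The bone sections of P8 and 89 weeks differed in 4 of the 9 genes by 2-fold or more, a share near that of all features. At 89 weeks Igll1 was 3.96-fold lower than at P8 (3.17 to 5), Dntt 2.46-fold lower (1.56 to 4.05) and Vpreb3 2.44-fold lower (2.06 to 2.9), whereas Pax5 was 2.27-fold higher (1.95 to 2.64). These 3 lower and 1 higher of 9 compare with 30.7% of 14792 features lower and 16.2% higher. Rag1 was at 1.05-fold (0.775 to 1.4), Ebf1 was 1.58-fold lower (1.38 to 1.82), and the intervals of Vpreb1 (0.236 to 1.81), Rag2 (0.308 to 1.57) and Il7r (0.926 to 2.24) included 1. Mature B cell genes were higher in 9 of 10, among them Ms4a1 (CD20) at 15.1-fold, and T cell genes in 10 of 10. Pre-B-cell receptor genes, most of which mature B cells share, were higher in 9 of 11. When only the marrow spots of both sections were summed, the P8 levels rose to 67.7 CPM for Igll1, 86.5 for Vpreb3, 14.0 for Rag1, 12.1 for Dntt, 54.8 for Ebf1, 30.9 for Pax5 and 5.20 for Il7r. Of the 9 genes 5 were then at least 2-fold lower at 89 weeks and 0 higher, against 3307 lower and 2032 higher of 13872 features. The ratios of 89 weeks to P8 on these spots were 0.151 for Igll1, 0.215 for Dntt and 0.219 for Vpreb3. They were 0.428 for Rag2 (9 against 23 counts) and 0.469 for Vpreb1 (6 against 14 counts). Rag2 and Vpreb1 thus rest on few counts, and no intervals were computed on these spots. Rag1 (0.568), Il7r (0.775) and Ebf1 (0.543) were also below 1, so that Rag1 and Il7r turned direction, and Pax5 was at 1.26. The bones also differ in preparation (the 89-week bone was embedded in gelatin and cut before paraffin), and that cannot be told apart from age.

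Between the aged marrow and the adult spleen, Igll1 and Rag1 were higher in marrow and the lineage factors and Il7r higher in spleen. Igll1 was 78-fold higher in the 89-week marrow (20.9 to 654, from 2 counts in spleen) and Rag1 24.3-fold higher (9.91 to 77.2, from 5 counts). In this spleen Igll1 was 0.286 times and Rag1 0.714 times the olfactory level, so the sizes of these folds are uncertain. In the marrow Il7r was 11.3-fold lower (7.99 to 16.4), Pax5 7.91-fold lower (7.07 to 8.87), Ebf1 6.05-fold lower (5.31 to 6.91) and Vpreb3 2.28-fold lower (1.92 to 2.73). That is 2 higher and 4 lower of 8 with enough counts, against 10.3% and 43.9% of 14827 features. Rag2 (1.48-fold, 0.543 to 3.94) and Dntt (1.17-fold, 0.654 to 2.06) were not separated. The share that was lower is thus near that of all features. With TMM scaling of these 2 sections 3 were higher, Rag2 (2.21-fold) added, and 3 lower, Vpreb3 (0.653-fold) no longer past 2-fold, and the split over all features changed from 1525 higher and 6511 lower to 2640 and 3859. Mature B and T cell genes were lower in the marrow in 10 of 10 each.

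**Figure D2:**
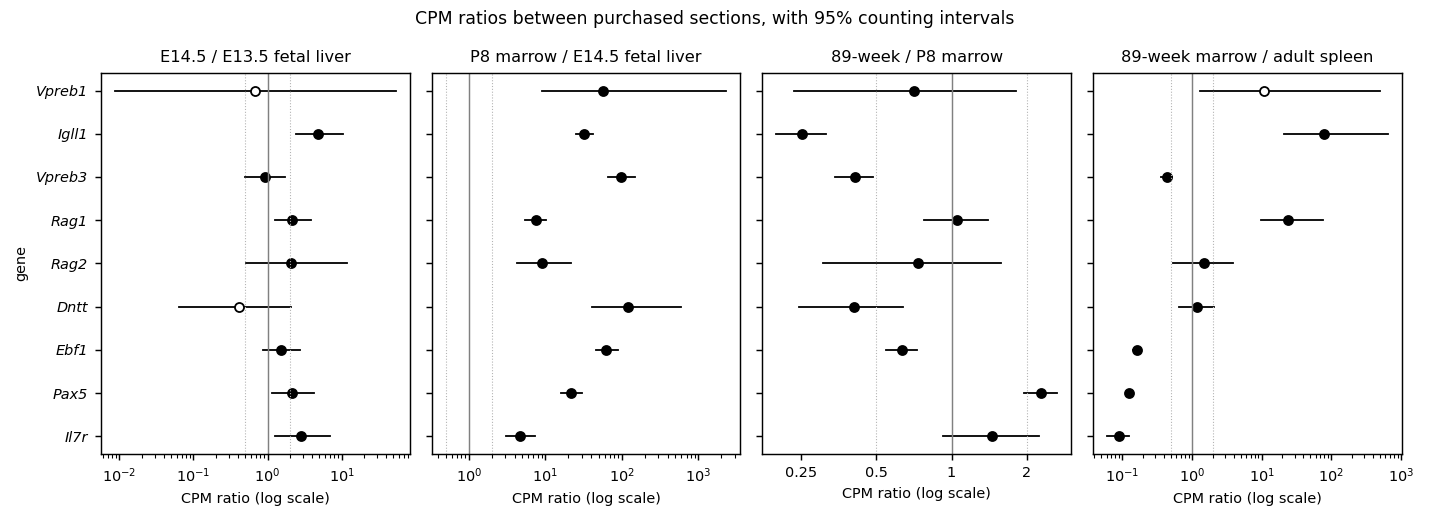
CPM ratios of each gene between pairs of purchased sections (log scale), with counting intervals. Dotted lines mark 2-fold and open points have fewer than 10 counts over both sections. All 9 genes lie to the right in P8 marrow against E14.5 liver, and in 89-week marrow against spleen Igll1 (78-fold) and Rag1 (24.3-fold) are the filled points past 2-fold to the right.

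Within the P8 section the early B genes lay together. Igll1 was detected in 319 of 1085 spots (29.4%, Clopper-Pearson 95% interval 26.7 to 32.2), with up to 11 UMIs in a spot. Adjacent spots of an Igll1 spot held Igll1 in 67.4% of cases, and those of other spots in 14.6%. Vpreb3 (70.4% against 14.9%), Dntt (31.1% against 8.41%) and Pax5 (42.9% against 14.8%) were placed in the same way. Spots with Igll1 were deeper, with a median of 34011 UMIs against 12152, so CPM levels are given as well. In spots with Igll1 and without it, Vpreb3 was at 73.3 and 19 CPM, Dntt at 11 and 1.74, Pax5 at 27.4 and 6.59, Rag1 at 11.2 and 3.94, and Ebf1 at 52.6 and 41.5. Ebf1 thus differed least between these spots. In the 271 spots with the highest share of neutrophil-gene UMIs Igll1 was at 68.3 CPM and in the 271 with the lowest at 4.53, Vpreb3 at 89.4 and 3.09, Dntt at 12 and 0.412, and Ebf1 at 55.7 and 38.7. Marrow spots were defined by this same neutrophil share, so the ranking is no separate check of them. They held 625 of 887 Igll1 counts, 798 of 1018 Vpreb3 counts and 112 of 141 Dntt counts, and 506 of 1034 Ebf1 counts. With the spots ranked by marrow stroma genes Igll1 was at 20.1 CPM in the top 271 and 50.5 in the bottom, and Ebf1 at 38.7 and 47.6.

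In the 89-week section Igll1 was detected in 79 of 932 spots (8.48%, 6.77 to 10.5), with at most 2 UMIs in a spot. Its neighbors held Igll1 in 9.23% of cases against 7.89% for other spots. Vpreb3 was at 18.1 CPM in spots with Igll1 and 19.1 in those without. Patches of Igll1 spots were thus not detectable at this depth of 8513 UMIs per spot (median), against 16659 at P8. Igll1 was still at 14.2 CPM in the 233 spots richest in neutrophil genes and 6.43 in the 233 poorest, from 29 and 14 counts, and neighbors of Rag1 spots held Rag1 in 11.6% of cases against 6.03%. With every spot thinned to 2000 UMIs, Igll1 was in 4.91% of 1080 P8 spots and 2.47% of 930 spots at 89 weeks, in the same order as the CPM. Spots of 1 section are not replicates, and these shares have no test between ages.

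**Figure D3:**
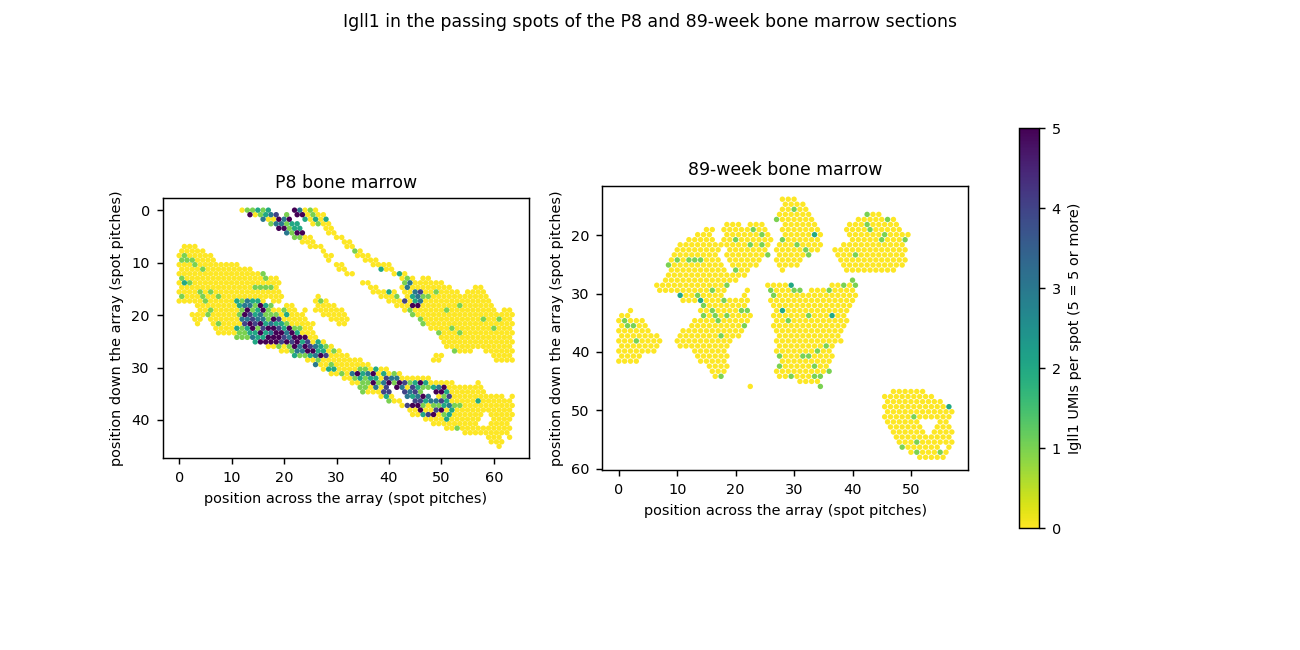
Igll1 UMIs in each passing spot of the P8 (left) and 89-week (right) bone marrow sections, at relative array positions in units of the spot distance. Spots with 5 or more UMIs share a color. The 319 P8 spots with Igll1 lie in patches, and the 79 spots at 89 weeks hold at most 2 UMIs each.

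In the C1qa cross, spleen and fetal liver were compared over 4 sections each, which also compares 3 months with E14.5. A gene is called changed at an adjusted p below 0.05 by edgeR's quasi-likelihood test over all genes. Of the 8 genes, 5 were higher in spleen and 0 lower, where 26.7% of 19180 genes were called higher and 26.6% lower, 53.3% in all (5119 and 5097 genes, or 6604 and 3485 with upper-quartile scaling). Pax5 was 5.61 higher on the log2 scale (SE 0.49, adjusted p = 0.000194), Ebf1 2.65 (SE 0.26, adjusted p = 0.000269), Dntt 1.95 (SE 0.37, adjusted p = 0.0044), Il7r 1.76 (SE 0.50, adjusted p = 0.0201) and Vpreb3 1.66 (SE 0.40, adjusted p = 0.0114). The 4 spleens lay above the 4 livers without overlap for Pax5, Ebf1, Dntt and Vpreb3 (two-sided exact permutation p = 0.0286 each, the smallest that 4 against 4 sections allow), and Il7r overlapped (exact permutation p = 0.0857). The share of all genes without overlap was not counted, and 53.3% of genes were called in this comparison. Igll1 differed by -0.14 (SE 0.72, adjusted p = 0.88) and Rag2 by 0.06 (SE 0.50, adjusted p = 0.919). Rag1 was 1.75 lower in spleen on this scale (log2 fold change -1.75, SE 0.76, adjusted p = 0.0847), which did not pass. It passed with the litter and section number as a replicate block (-1.25, SE 0.35, adjusted p = 0.00125), a fit in which 13546 of 19180 genes were called. Without both litter 4 livers, a fit that was not planned and leaves no replicate livers, Rag1 was at -2.55 (SE 0.28). In that fit Igll1 was also lower in spleen (-0.84, SE 0.26), whereas without wild-type liver 2 it was higher (1.37), so that its direction rests on which livers enter. The 915 olfactory receptor genes tested had a median of 0.89 in the same direction as the called genes, with 292 called higher and 22 lower, and their part in the values of Dntt, Il7r and Vpreb3 was not tested.

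The wider pathway moved with mature B cells in this comparison. All 11 pre-B-cell receptor genes were called higher in spleen (median 3.48 on the log2 scale, against 0.10 over all genes), among them Blk (7.19), the adaptor Blnk (5.51) and the kinase Syk (3.48). Of 16 B-lineage transcription factors 8 were higher, including Ikzf3 (6.32), Irf4 (4.55), Irf8 (3.81) and Foxo1 (2.56), and 1 lower, Id2, an inhibitor of E proteins (-0.68). Of 10 IL-7 signaling genes 7 were higher and 0 lower, led by Il2rg, the shared receptor chain (4.48), with Bcl2 (2.35), Jak3 (2.21) and Crlf2 (1.91). The genes on the DNA end-joining list divided into 4 higher and 3 lower of 11, with Polm at 1.70 and Xrcc6, Xrcc5 and Hmgb2 at -1.34, -1.20 and -1.18. Of the 13 early B surface and enzyme genes 3 were higher (Cd2, 5.87; Flt3, 2.15; Bst1, 2.14) and 7 lower, such as Enpep (-1.78). Mature B and T cell genes were called higher in 10 of 10 each, with summed levels of 4243 to 5707 CPM in the spleens against 31.7 to 63.2 CPM in the livers for B and 868 to 2106 against 14.7 to 42.6 CPM for T, and their part in the changes of Pax5, Ebf1 and Il7r was not tested.

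C1qa genotype was compared within fetal liver to ask whether loss of C1q in the organ goes with a change in B cell formation. With 2 sections per genotype, 0 of the 8 genes and 0% of 18986 genes were called by edgeR (138 of all genes and 1 of the 8 had an unadjusted p below 0.05, and DESeq2 called 12 of all genes and 0 of the 8). The exception at the unadjusted level was Ebf1, at -1.39 on the log2 scale in knockout livers (SE 0.54, adjusted p = 1 by edgeR). With the litter as a replicate block 157 genes were called, Ebf1 among them (-1.40, SE 0.39, adjusted p = 0.039). On hepatocyte-rich spots alone, where wild-type livers held Ebf1 at 6.82 and 2.30 CPM and knockout livers at 3.65 and 3.26 CPM, the groups overlapped and it was not called (-0.75, SE 0.72, adjusted p = 1). The intervals of the other 7 were wide, from -2.96 to 1.60 for Igll1, -2.94 to 1.62 for Rag1 and -0.42 to 2.44 for Dntt, and those of 5 of the 7 include a change of 2-fold in either direction. The olfactory receptor genes had a median of 1.03 here, with 0 of 881 called. In the 5 pathway lists 0 genes were called.

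In the spleen the knockout sections had more Il7r. The wild-type level was no higher than that of the olfactory receptor genes, above 22% and 32.4% of them, so that the size of the fold is uncertain, and the purchased wild-type spleen was above both knockout spleens at 45.4 CPM. Il7r rose by 3.13 on the log2 scale, 8.78-fold (SE 0.43, adjusted p = 0.000107), from 2.17 ± 0.0566 CPM to 15.5 ± 10.7 CPM (SD, n = 2 each), and the genotypes did not overlap. Ebf1 rose by 0.72 (SE 0.19, adjusted p = 0.0116), Pax5 by 0.53 (SE 0.18, adjusted p = 0.0469), and Igll1 was lower (-0.97, SE 0.31, adjusted p = 0.0331). DESeq2 called the first 3 and gave Igll1 no adjusted p (-0.92, SE 0.40). The Igll1 levels lay within the range of the olfactory receptor genes, whose 90th percentile was also lower in knockout, at 5.76 and 3.83 CPM against 8.63 and 7.57 CPM. That is 3 higher and 1 lower of 8, where 13.8% of 18895 genes were called higher and 6.79% lower, 20.6% in all. The ranges of Pax5 overlapped (306 and 246 against 369 and 303 CPM), and those of Ebf1 and Igll1 did not. How many of all genes separate in this way between 2 and 2 sections was not counted. Vpreb3 (0.03, interval -0.35 to 0.42), Dntt (-0.05, -0.51 to 0.42), Rag1 (-0.28, -1.13 to 0.57) and Rag2 (0.44, -0.36 to 1.23, and 0.09 to 1.7 with a section left out) were not called. With upper-quartile scaling, which moved the median of all genes from -0.08 to -0.37, the split over all genes was 1197 higher and 4400 lower in place of 2603 and 1283, and Pax5 was not called (0.24, adjusted p = 0.291). Il7r was called with any section left out, at 2.01 to 3.71 on the log2 scale. Igll1 was lost without knockout 2 (adjusted p = 0.264), wild-type 1 (adjusted p = 0.12) or wild-type 2 (adjusted p = 0.0884), Ebf1 without knockout 2 (adjusted p = 0.369), and Pax5 without knockout 1 (adjusted p = 0.228), knockout 2 (adjusted p = 0.311) or wild-type 2 (adjusted p = 0.104). In a fit of all 8 cross sections, which takes the spread of the livers too, 0 of the 8 genes and 0 of all genes were called (1 of the 8 and 1373 of all at an unadjusted p below 0.05), with Il7r at 3.11 (SE 0.70, adjusted p = 0.623).

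Other groups of genes moved with genotype in the same spleens. Neutrophil genes were called lower in knockout in 8 of 8 (median -2.36 on the log2 scale, against -0.08 over all genes; summed levels 662 and 593 CPM against 73.5 and 131 CPM) and erythroid genes in 6 of 8 (median -1.48). Of T cell genes 4 of 10 were called higher (Themis 1.10, Cd8a 0.99, Cd4 0.81, Cd28 0.75), while Cd3e, at 163 and 380 CPM without the knockout and 229 and 289 CPM with it, was not called. The summed T cell level was 868 and 2106 CPM in wild-type against 1524 and 1786 CPM in knockout, and the genotypes overlapped. Mature B cell genes were called higher in 2 of 10, Cr2 (1.47) and Fcmr (0.49), plasma cell genes in 2 of 6, plasmacytoid dendritic cell genes in 3 of 6, and olfactory receptor genes in 4 of 859, with 30 lower and a median of -0.40. The part of these shifts in the 4 called genes was not tested. In the pathway lists 1 of 10 IL-7 signaling genes was higher (Jak3, 1.08), 3 of 11 pre-B-cell receptor genes (Plcg2 0.71, Cd79b 0.65, Syk 0.60), 6 of 16 transcription factors with 2 lower (Irf4 1.01 and Lef1 0.92 among the first, Sox4 -0.69 and Id3 -0.50 the second), 1 of 11 end-joining genes with 1 lower (Lig4 0.63, Hmgb2 -0.57), and 2 of 13 early B surface and enzyme genes with 2 lower.

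Whether the genotype difference itself differed between spleen and liver was tested as an interaction, and 0 of the 8 genes and 0% of 19180 genes were called by edgeR (2 of the 8 and 2018 of all at an unadjusted p below 0.05; DESeq2 called 0 of the 8 and 8 of all). Ebf1 had the smallest p of the 8 (2.13, SE 0.49, adjusted p = 0.454 by edgeR), followed by Il7r (2.68, SE 0.99, adjusted p = 0.454 by edgeR).

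**Figure D4:**
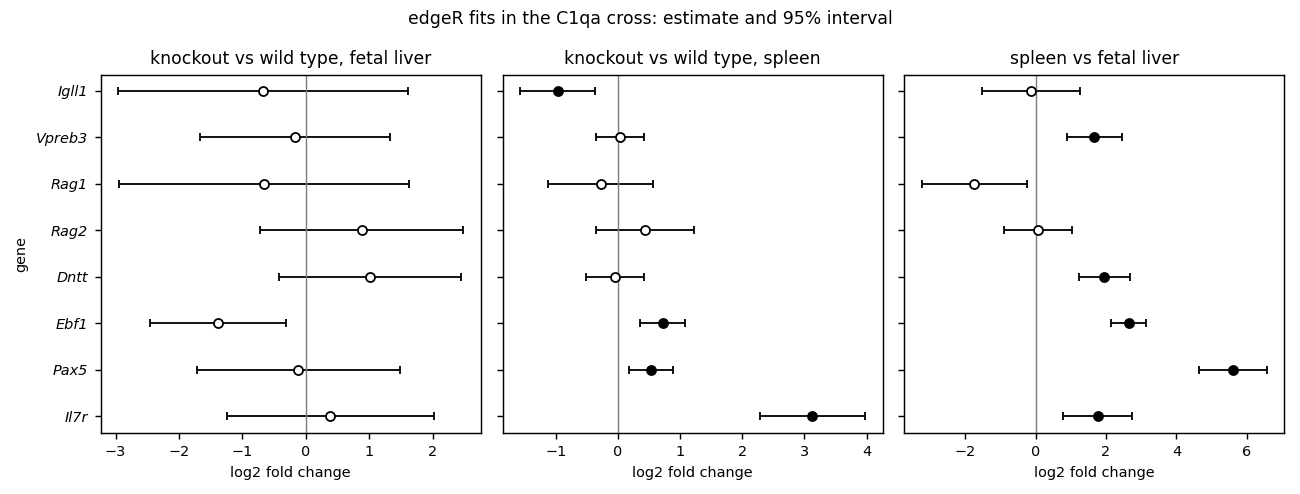
edgeR log2 fold changes of the 8 genes listed in the cross with 95% intervals, for genotype in fetal liver and in spleen and for spleen against fetal liver. Filled points have an adjusted p below 0.05. Il7r in the knockout spleens (3.13) and Pax5 in spleen against liver (5.61) lie farthest from 0.

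Inside the spleens the genes were spread by compartment. In each of the 5 spleen sections, the 253 to 411 spots with the highest share of mature B cell UMIs were set against as many with the lowest share. Ebf1 was 2.96 to 4.24-fold and Pax5 2.9 to 3.93-fold higher in the B-rich spots, and Vpreb3 1.47 to 2.47-fold. Il7r was 0.55-fold in the B-rich spots of the purchased spleen and 0.274 and 0.344-fold in those of knockout 1 and 2, and 2.14 and 1.03-fold in wild-type 1 and 2, from 11 and 6 counts. By T cell genes Il7r was 2.37-fold higher in the T-rich spots of the purchased spleen, 3.59 and 5.18-fold in knockout 1 and 2, and 2.31 and 0.981-fold in wild-type 1 and 2. In knockout spleen 2 Il7r was at 51.1 CPM in the T-rich and 9.87 CPM in the T-poor spots. Dntt was 2.70-fold in the T-rich spots of the purchased spleen, 0.938 and 1.47-fold in wild-type 1 and 2, and 1.5 and 2.22-fold in knockout 1 and 2. The lineage factors thus lay in the B cell areas of all 5 spleens, and Il7r in the T cell areas of the 3 spleens in which it stood above the olfactory level.

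**Figure D5:**
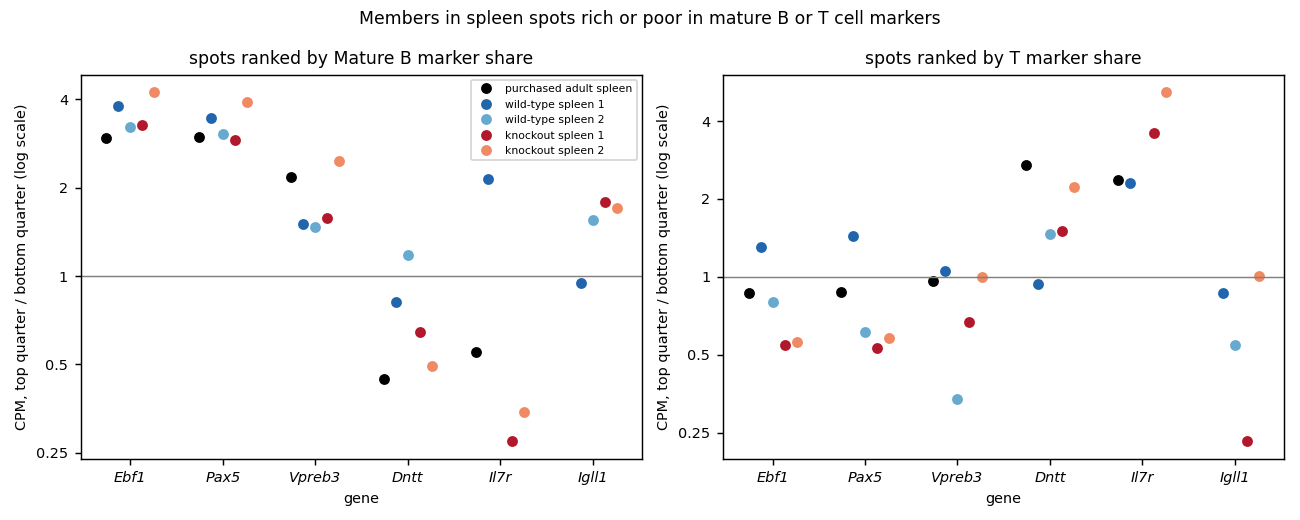
Ratio of CPM in marker-rich over marker-poor spots (253 to 411 each) (log scale) for each spleen section, by mature B cell genes (left) and T cell genes (right). Points with fewer than 10 counts are not drawn. Ebf1 and Pax5 lie above 1 in all 5 sections by B cell genes, and Il7r is 5.18-fold higher in the T-rich spots of knockout spleen 2.

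Genes whose level followed a member most closely were sought over the 13 sections other than the EDTA-treated one. The measure was Pearson r of log2(CPM + 1), among the 12229 genes in both feature tables above a floor of mean CPM. These points share organ, feature table and depth, and the purchased and cross sections are mixed, so r is a description. Pax5 had Blnk and Txnip among its closest (r = 1.00 each), Ebf1 to Nr4a1, Srpk3 (0.98) and Gadd45b (0.97), Dntt to Chst7, Fxyd2 and Runx1 (0.98), and Il7r to Samhd1, Igip (0.96) and Ifi207 (0.95). Vpreb3 was closest to Ace (0.96), Casp12 and Enpp1 (0.95), Igll1 to Scrg1 (0.92), Steap4 (0.91) and Sfrp4 (0.89), Rag2 to Fam221a (0.91), Slc25a20 (0.89) and Smpd1 (0.88), and Rag1 to F13a1 (0.90), Chil1 (0.89) and Igll1 (0.83). Igll1, named for Rag1, is the only member named for another. Rag1 and Rag2 lay below the CPM floor, so neither could be named for any member, and Igll1 passed it only with P8 marrow counted. Over the 1085 spots of P8 marrow, the summed members were closest to replication-dependent histone genes, which are made in dividing cells (Hist1h3h, Hist1h2bl and Hist1h3i, r = 0.58 each), and to Cd79a, the signaling chain of the B cell receptor (0.56), where the median of 12232 genes was 0.03. These spots share depth and the division into marrow and bone. Over the 932 spots at 89 weeks the highest r was 0.15, from which nothing is read.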

How the data were processed

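The data are Visium probe-based sections of formalin-fixed mouse tissue. The authors deposited raw UMI counts per spot and gene with spot positions and an in-tissue mark, made with Space Ranger on mm10 per the labels' processing notes. Image scale factors were not used. Other settings are not given in the sources used here. Here counts were summed per section over spots on tissue in which 1000 genes or more were detected and divided by the summed UMIs (CPM), with exact Poisson intervals, and a floor of 3 counts. Intervals cover counting error only. Pairs of purchased sections were compared by CPM ratios with conditional binomial intervals (95%), past 2-fold and with at least 10 counts. The cross was tested with edgeR 4.0.16 (quasi-likelihood, TMM, Benjamini-Hochberg adjustment over all genes) in R 4.3.3, and DESeq2 1.42.0 was an alternative. Standard errors were derived from the F statistic, and intervals from them by the normal distribution, so they are somewhat narrower than the test. Fetal livers of one number are litter mates per the study's methods, and deviations of same-numbered livers correlated at 0.652 (18986 genes). Spleen numbers are numbers only (0.0394). In simulated counts for 19465 genes, with a fixed spread and no litter effect, the tests recovered 76% to 99% of 2-fold and 100% of 4-fold changes. This spread was chosen and not estimated from the sections, so the rates are not the power of the fits above. Only genes above a CPM floor that most members do not reach in the livers were changed, so these rates do not describe those members. The genes named are all members, pathway genes from fixed lists, and the 3 genes nearest to each member, of which 1 is not reported here. The members and lists were chosen with earlier results of these data known. Alternatives were another scaling, filter, spot set or test, the replicate block, and leaving out each section.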

Additional observations from a re-analysis of the deposited data

Results flagged for a closer look

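Ebf1 was singled out because its genotype difference ran in opposite directions in the cross tissues. The difference of the log2 fold changes, spleen minus fetal liver, was 2.13 (SE 0.49, adjusted p = 0.454 by edgeR), which does not pass over all genes. Wild-type livers held Ebf1 at 7.72 and 20.7 CPM and knockout livers at 4.76 and 6.72 CPM, and the spleens held 85.2 and 64.4 CPM (wild-type) and 92.7 and 113 CPM (knockout). With fetal liver taken from hepatocyte-rich spots alone the livers overlapped and the difference was 1.66 (SE 0.89, adjusted p = 0.377 by edgeR).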

How the results depend on the processing

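In fetal liver the litter as a replicate block raised the members called from 0 to 1 (Ebf1) and all calls from 0 to 157. DESeq2 called 12 genes there, and 109 and 103 were called without wild-type liver 2 or 4. In spleen the joint fit of 8 sections gave 0 members, and all calls fell from 3886 to 240 without knockout spleen 2. For spleen against liver 10216 calls became 5589, 6068 and 6429 without knockout spleen 1, wild-type spleen 1 or 2, and for the interaction DESeq2 called 8 genes in place of 0, and 2 were called without knockout liver 4. With 1 section left out, members called ranged from 0 to 0 (genotype in liver), 1 to 3 (genotype in spleen), 4 to 6 (spleen against liver) and 0 to 0 (interaction), the lone section being taken to vary like the others. Without the 10 most abundant genes in the denominator, 76 of 118 CPM levels stayed within their interval. Directions turned for genes that were not called. By genotype in liver these were Igll1 (0.30), Pax5 (0.07) and Vpreb3 (0.15) with the block, and Pax5 (0.10) and Vpreb3 (0.12) with upper-quartile scaling. By genotype in spleen they were Dntt (0.01) with DESeq2 and Vpreb3 (-0.26) with upper-quartile scaling. For spleen against liver they were Igll1 with the block (0.20) and upper-quartile scaling (0.32) and Rag2 with DESeq2 (-0.06). With a section left out, genotype in liver ranged from -0.06 to 1.55 for Dntt, -1.59 to 2.43 for Igll1, -0.16 to 1.1 for Il7r, -0.76 to 1.09 for Pax5, -1.96 to 1.92 for Rag1, -0.61 to 1.53 for Rag2 and -0.81 to 1.07 for Vpreb3. Genotype in spleen ranged from -0.19 to 0.12 for Dntt, -0.42 to 0.08 for Rag1 and -0.09 to 0.2 for Vpreb3, and spleen against liver from -0.61 to 1.37 for Igll1 and -0.43 to 0.87 for Rag2. The cause was not tested. Of 308 member fold changes 256 kept direction and side of the threshold, 17 lost and 6 gained the call, and 29 turned. In the purchased fetal livers Dntt and Vpreb1 rest on 1 to 5 counts.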
